A study of Saccharomyces cerevisiae with 18 samples.

Results

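Ribosome footprints of Saccharomyces cerevisiae were compared between lysates that lack TMA20 and lysates that have it, over 2 growth media and 2 TMA64 backgrounds. Of the 18 libraries of the series, the 9 Ribo-Seq libraries were used, 4 of them without TMA20 and 5 with it, and the 9 RNA-Seq libraries of the same lysates were set beside them. All strains are BY4741 derivatives of mating type a with the alleles his3Δ1, leu2Δ0, met15Δ0 and ura3Δ0, which the controls carry too. The group without TMA20 holds Δtma20 (tma20Δ::KanMX4) and ΔΔtma20tma64 (tma64Δ::HygMX4 tma20Δ::KanMX4), each with 1 lysate in YPD and 1 in SD. The group with TMA20 holds wt with 2 lysates in YPD (WT1 and WT2) and 1 in SD, and Δtma64 (tma64Δ::KanMX4) with 1 lysate in each medium. YPD is a rich medium with peptone and yeast extract. SD is a synthetic glucose medium made with yeast nitrogen base, to which complete amino acids were added according to the study's methods, whereas the sample labels name no supplement. Cells were in exponential growth and were treated briefly with cycloheximide, which arrests elongating ribosomes, before harvest. No mutant strain has a replicate within a medium. A p-value below therefore measures a difference against the spread that remains between lysates after additive terms for medium and TMA64. That spread holds the difference of WT1 and WT2 and any departure of the strains and media from additive effects. KanMX4 is present in Δtma64 as well as in the strains without TMA20, and wt carries no cassette.

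Tma20 (MCT-1 in mammals) forms a heterodimer with Tma22 (DENR), and Tma64 (eIF2D) joins homologs of both in 1 chain. After a ribosome has terminated at a stop codon and its large subunit has left, these factors release the deacylated tRNA and the mRNA from the small subunit, so that the subunit can be used again. Upstream of that step Rli1 (ABCE1), an ATPase with iron-sulfur clusters, splits the terminated ribosome. When small subunits are not released they can resume scanning, reach codons past the stop codon or start again downstream. A footprint is the stretch of mRNA that a ribosome shields from RNase I, and the footprint count of a gene follows both the amount of its mRNA and how many ribosomes are on it.

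The footprints of TMA20 itself match the labels: 1.91 and 1.36 counts scaled to the library total (CPM) in the YPD lysates and 2.34 and 0.382 in the SD lysates without it, against 123 to 155 in the 5 lysates with it. TMA64 was likewise under 1 CPM in the 4 lysates of its deletion (0.152 to 0.777) and at 58.3 to 83.0 in the other 5. LEU2, MET17 (the gene of the met15Δ0 allele) and URA3 were under 1 CPM in each lysate. HIS3, whose his3Δ1 allele removes only part of the gene, was at 98.3 to 152 CPM in the 9 lysates. Of 7 markers of mating type a, which sum to 676 to 1042 CPM without TMA20 and 822 to 1367 with it, 4 fell and none rose, as described below with the mating genes. The 4 markers of mating type α together stayed at or under 12.3 CPM in each lysate. A library held 1668588 (Δtma20 in SD) to 23532664 (ΔΔtma20tma64 in SD) counts on open reading frames (ORFs), median 6589096. Rows that are no ORF took 0.394% to 12.0% of the gene counts, and the highest shares were those of Δtma20 in SD (12.0%) and wt in SD (9.13%), which also have the lowest totals. In bulk lysates CPM are relative to the rest of the library, and less RNA per cell and fewer cells with the RNA cannot be told apart.

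Footprints of 212 of the 5369 ORFs tested differed without TMA20 (3.95%), 85 upwards (1.58%) and 127 downwards (2.37%), at an adjusted p under 0.05 from edgeR's quasi-likelihood test with medium and TMA64 genotype as further terms. Most changes were small: 63 of the 85 risen genes and 86 of the 127 fallen genes moved by less than 1.5-fold, while 5 and 18 moved by more than 2-fold. The median size of the log2 fold change was 0.45 among the risen and 0.50 among the fallen genes, beside 0.12 over all ORFs tested. The level of 107 of the 212 did not overlap between the 4 lysates without and the 5 with TMA20, whereas 5.59% of all ORFs tested have such non-overlapping levels. Within the 4 strata (each medium with and without TMA64), 205 of the 212 had the same sign in all 4, which the choice of called genes favours. Leaving out 1 lysate at a time gave 56 (without Δtma20 in SD) to 272 genes (without WT1), and 29 genes passed in each of the 9 omissions, 8 of them risen and 21 fallen. Those 29 are marked in the text as passing in all omissions. TMA20, whose fall the deletion fixes, is counted among the 212, the 127, the 18 and the 29, and also among the 107 and the 205.

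Changed genes were counted in 70 lists of genes by function, from textbook knowledge but chosen with earlier results of these data known. The counts per list depend in part on that choice, and no set test was made. Of the 70 lists, 56 had a changed member, 30 of them with fallen members alone, 13 with risen members alone and 13 with both. Of the 1900 genes in at least 1 list 121 were changed, beside 3.95% of all ORFs tested. The lists with 5 or more changed genes were glycolysis and ethanol fermentation (6 fell of 24 tested), pheromone response (6 fell of 34), sulfate, methionine and cysteine (5 fell of 34), small subunit ribosomal proteins (5 rose of 57), large subunit ribosomal proteins (4 rose and 1 fell of 81), cytosolic chaperones (1 rose and 4 fell of 31) and nitrogen catabolite repression and permeases (1 rose and 4 fell of 39). Over all ORFs tested 1.58% rose and 2.37% fell, and the median log2 fold change was -0.00, with 2642 values above and 2727 below 0.

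**Figure D1:**
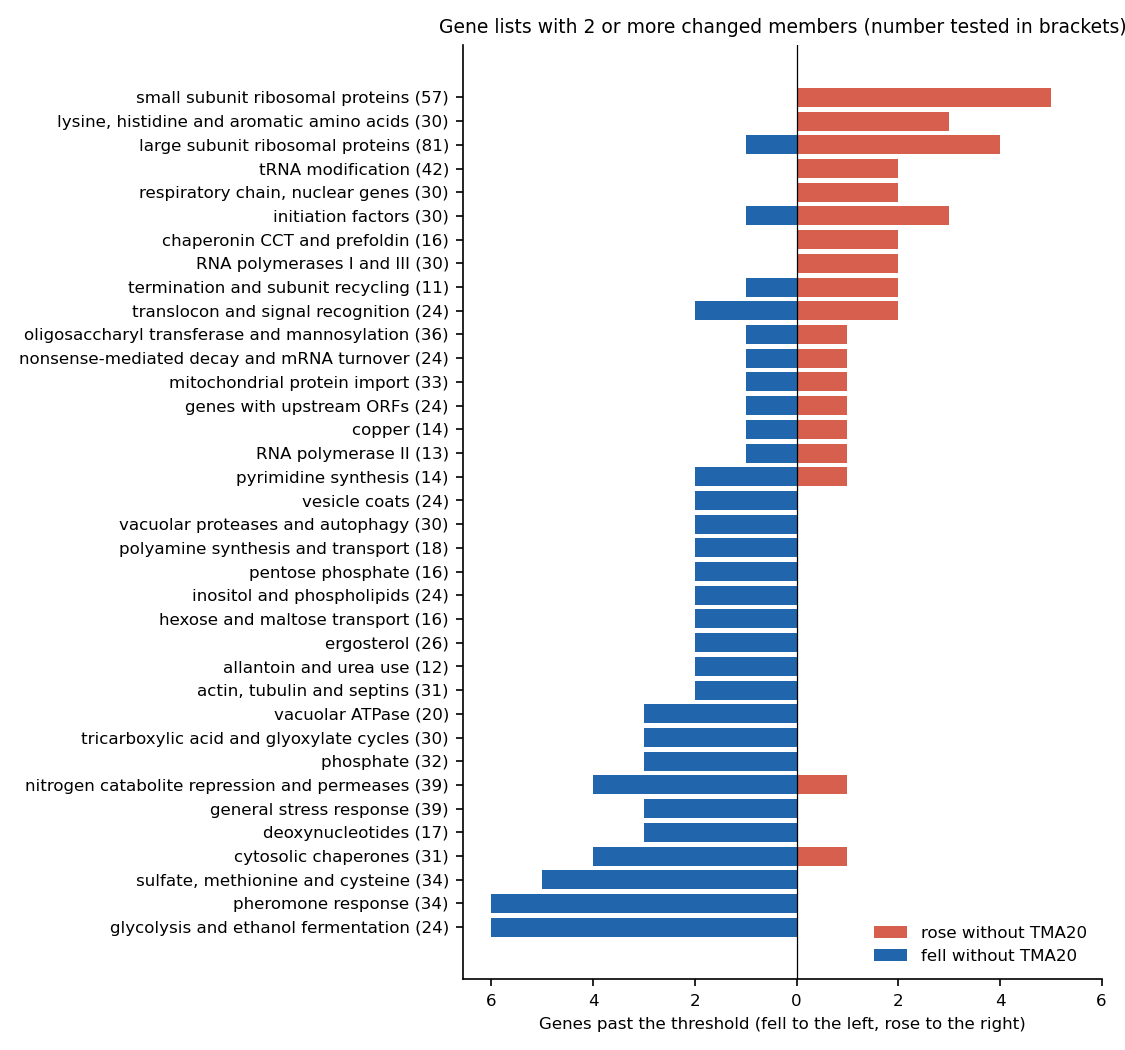
Number of genes per list whose footprints rose (red, to the right) or fell (blue, to the left) without TMA20 at an adjusted p under 0.05, for the lists with 2 or more such genes. The number of members tested is in brackets. Glycolysis and pheromone response have 6 fallen members each and no risen one, and small subunit ribosomal proteins have 5 risen and no fallen one.

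Among the factors of termination and recycling, RLI1 rose and was the gene with the smallest adjusted p after TMA20. RLI1 (YDR091C, chromosome IV from 626708 to 628534, reverse strand) stood at 609 CPM in Δtma20 and 523 in ΔΔtma20tma64 in YPD and 425 and 538 in SD, against 212 and 216 in WT1 and WT2, 263 in Δtma64 in YPD, 189 in wt in SD and 241 in Δtma64 in SD. The lowest lysate without TMA20 was thus well above the highest with it, in both media and with or without TMA64, and within the strata the log2 ratio was 1.51 and 0.99 in YPD and 1.17 and 1.16 in SD, with and without TMA64 respectively. The fitted rise was 2.34-fold (log2 fold change 1.23, SE 0.10, adjusted p = 8.60e-06) and passed in all 9 omissions. HCR1, a protein bound to initiation factor 3 that also acts in recycling, was the other risen member (0.44, SE 0.11, adjusted p = 0.0411). Its level was 464 to 592 CPM without TMA20 and 331 to 525 with it, where wt in SD (525) was the single lysate inside the range of the deletion strains. HCR1 passed in 3 of 9 omissions (adjusted p up to 0.157). Of the remaining 8 members of this list none passed: the release factors SUP45 and SUP35 had log2 values of 0.23 (SE 0.08) and 0.13 (SE 0.08), the partner gene TMA22 0.10 (SE 0.09), and TMA64 0.26 (SE 0.15), the latter resting on the lysates that have it.

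The last 27 coding bases of RLI1 and HCR1 are shown with those of HOL1 and SBH2, which with RLI1 are the nuclear genes called for translation efficiency before pairing by lysate, because the deleted factor acts on small subunits that have reached a stop codon. The stop codon is in capitals, and each lies on the reverse strand of R64.
RLI1 (chrIV:626708-626734): tttttcttggataacaccggtattTAA
HCR1 (chrXII:538792-538818): gaattcggtgatgacgactttatgTAA
HOL1 (chrXIV:728426-728452): tctgtcaatttgagagacggtgtgTAA
SBH2 (chrV:194273-194299): ttgacgaaatttacacacattataTAA
All 4 end in TAA, as do 48.5% of the ORFs tested. TAA, TAG and TGA ended 51.2%, 19.0% and 29.8% of the risen and 55.9%, 21.3% and 22.8% of the fallen genes, beside 48.5%, 22.1% and 29.3% over all.

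DRE2, which carries electrons to the assembly of cytosolic iron-sulfur clusters such as those of Rli1, also rose (1.33-fold, log2 fold change 0.41, SE 0.09, adjusted p = 0.026). DRE2 stood at 171 and 188 CPM in YPD and 139 and 136 in SD without TMA20, and at 109 to 131 in the 5 lysates with it, with no overlap. Of the 10 members of the cytosolic iron-sulfur list it was the single one called. TAH18, the reductase that works with Dre2, had a log2 value of 0.21 (SE 0.09, adjusted p = 0.235), and the 17 genes of mitochondrial iron-sulfur assembly and the 38 of the iron regulon held no called gene. DRE2 mRNA had a log2 value of -0.04 (SE 0.08). The call passed in 4 of 9 omissions (adjusted p up to 0.0989).

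The mRNA cap-binding protein CDC33 and CAF20, the repressor that binds it, rose together. CDC33 was at 671 and 761 CPM in YPD and 669 and 624 in SD without TMA20 and at 458 to 553 with it, so the groups did not overlap (log2 fold change 0.43, SE 0.08, adjusted p = 0.00826). CAF20 rose by 0.45 (SE 0.10, adjusted p = 0.0287). DBP1, a DEAD-box helicase related to DED1, fell from 14.9 to 25.4 CPM in the lysates with TMA20 to 7.97 to 13.3 without it (-0.66, SE 0.15). Together with HCR1 these were the changed members among 30 initiation factors, and DED1 itself had a log2 value of 0.14 (SE 0.08). CDC33 lost its call when Δtma20 in SD was left out (adjusted p = 0.0532), and CAF20 and DBP1 passed in 3 and 4 of 9 omissions. Of 13 elongation factors TEF1 fell (-0.75), but 4.15% of its 28-nt windows are unique in the genome because TEF2 is nearly identical, so this value is uncertain.

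Of the ribosomal protein genes 10 changed, and 9 of these rose. Each of the 10 is 1 copy of a duplicated pair, but the share of such copies among all listed genes was not counted. RPL6B rose from 1296 to 1609 CPM to 1677 to 2026 (log2 fold change 0.41, SE 0.08, adjusted p = 0.0167), while its copy RPL6A had a value of -0.08 (SE 0.07). RPS9A rose by 0.40 (SE 0.08) beside -0.09 (SE 0.08) for RPS9B, RPS17B by 0.40 beside 0.07 for RPS17A, RPL22B by 0.46 beside -0.02 for RPL22A, and RPL33B by 0.32 beside -0.29 for RPL33A. The difference between copies was not tested. RPS7B (0.40), RPS11B (0.37), RPS26B (0.35) and RPL36B (0.31) rose as well, and RPL8A was the single member that fell (-0.38, SE 0.08). The share of unique windows is under 95% for 8 of these 10 (70.5% in RPS11B to 92.8% in RPL6B), so their counts leave out reads shared with the other copy. The 57 small subunit genes had a median of 0.09 with 41 of 57 values above 0, and the 81 large subunit genes 0.03 with 47 above 0, while mRNA medians were 0.13 and 0.11. In SD without TMA64 both footprint medians were below 0 (-0.03 and -0.07). No gene passed among 76 tested genes of mitochondrial ribosomal proteins, 20 aminoacyl-tRNA synthetases or 121 ribosome biogenesis factors.

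A few regulators of ribosomes and mRNA decay moved as well. LSO2, a small protein that binds ribosomes during recovery from starvation, rose by 0.55 (SE 0.13), from 63.9 to 134 CPM with TMA20 to 96.8 to 149 without it, and wt in SD (134 CPM) lay inside the range of the deletion strains. EBS1, related to the telomerase protein Est1 and tied to nonsense-mediated decay, rose by 0.45 (SE 0.11), and XRN1, the exonuclease that degrades decapped mRNA from its 5′ end, fell by 0.30 (SE 0.08). The remaining 24 genes of rescue and quality control and 22 of mRNA turnover did not pass. TMA19 (the TCTP homolog) and TMA7, both found with ribosomes, fell by 0.39 (SE 0.07) and 0.37 (SE 0.08). Of 42 tRNA modification genes the methyltransferase TRM5 and TRM112, an activating subunit of several methyltransferases, rose (0.36 and 0.41), and RKM4, which methylates a ribosomal protein, rose by 0.59 (SE 0.10) and passed in all omissions.

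**Figure D2:**
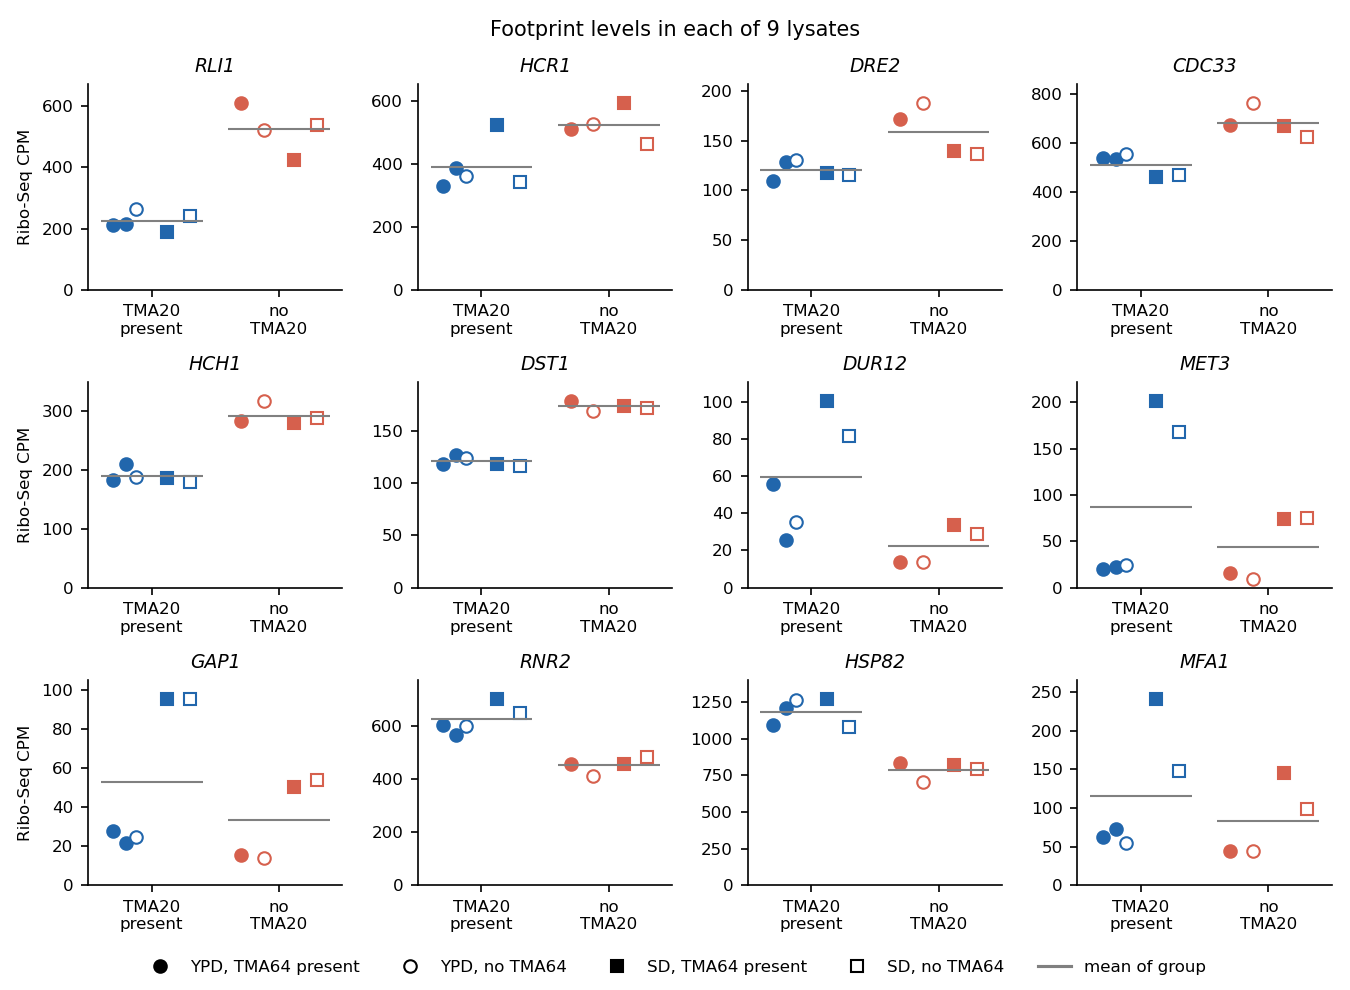
Ribo-Seq CPM of 12 genes in each of the 9 lysates (linear axis from 0). Circles are YPD and squares SD, filled symbols have TMA64 and open symbols lack it, blue lysates have TMA20 and red ones lack it, and grey lines are group means. RLI1, DRE2, CDC33, HCH1 and DST1 are higher and RNR2 and HSP82 lower in all 4 lysates without TMA20 than in any of the 5 with it, whereas DUR12, MET3, GAP1 and MFA1 are lower within each medium, against a difference between media.

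Transcription genes included one of the most even rises. DST1 (YGL043W, chromosome VII from 417483 to 418412, forward strand), the elongation factor that restarts stalled RNA polymerase II, was at 179, 169.6, 174 and 172 CPM in the 4 lysates without TMA20 and at 117 to 127 in the 5 with it. The rise was 1.44-fold (log2 fold change 0.53, SE 0.08, adjusted p = 0.00318) and passed in all omissions. Some polymerase subunits rose: RPB9 of RNA polymerase II (0.42, SE 0.10), RPA49 of RNA polymerase I (0.41, SE 0.10) and RPC17 of RNA polymerase III (0.49, SE 0.11). In contrast RPO21, the largest subunit of RNA polymerase II, fell (-0.34, SE 0.08), from 598 to 703 CPM to 451 to 529. Of 30 genes of RNA polymerases I and III, 23 had values above 0, and the median was 0.08, but -0.15 in SD with TMA64. In that stratum RPC17 did not rise, at 39.2 CPM in Δtma20 against 40.8 in wt. IES5, a subunit of the INO80 chromatin remodeller, rose by 0.53 (SE 0.09) and passed in all omissions, while the polymerase subunits passed in 3 or 4 of 9. RPA49 and DST1 mRNA had log2 values of -0.02 (SE 0.08) and 0.08 (SE 0.06).

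Chaperones moved in both directions. HSP82, the inducible Hsp90, fell from 1079.8 to 1272 CPM in the lysates with TMA20 to 706 to 832 without it (-0.58, SE 0.08, adjusted p = 0.00318; 81.8% of its windows are unique, since HSC82 is similar). SSE1, the nucleotide exchange factor of Hsp70, fell by 0.40 (SE 0.07), the disaggregase HSP104 by 0.46 (SE 0.10), mitochondrial Hsp70 SSC1 by 0.27 (SE 0.07) and the cyclophilin CPR1 by 0.32 (SE 0.08). HCH1, in turn, an activator of the Hsp90 ATPase, rose. Its levels were 284 and 317 CPM in YPD and 280.1 and 288 in SD without TMA20, above the 179.9 to 211 of the lysates with it (log2 fold change 0.63, SE 0.08, adjusted p = 0.00184, in all omissions). AHA1, its paralog, had a log2 value of -0.10 (SE 0.10). Of the 31 genes listed as cytosolic chaperones 27 had values below 0, with a median of -0.11. The 4 fallen members of that list include SSC1, which is mitochondrial. HSP82 passed in all omissions and SSE1 in 7 of 9, whereas SSC1 passed in none, so that its call rests on each lysate.

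Factors that guide proteins to the ER and to their fold changed in smaller numbers. GET4 and MDY2, which hand tail-anchored proteins from the ribosome to the targeting factor Get3, rose together: GET4 from 136 to 153 CPM to 168 to 197 (0.33, SE 0.08) and MDY2 from 92.2 to 103 to 114 to 135 (0.38, SE 0.08). Neither overlapped between groups. GET3 itself did not pass (log2 value -0.28, SE 0.07, adjusted p = 0.0514). Prefoldin, which delivers unfolded actin and tubulin to the chaperonin, had GIM3 (0.45, SE 0.09) and PFD1 (0.49, SE 0.10) among the risen genes, whereas the 8 chaperonin genes did not pass. TUB2, the β-tubulin, fell by 0.31 (SE 0.07). SBH2, a subunit of the Ssh1 translocon, fell from 169.6 to 215 CPM to 97.8 to 129.9 (-0.67, SE 0.09, adjusted p = 0.00192, in all omissions), and its near relative SBH1 had a value of 0.05 (SE 0.08). SRP54, of the signal recognition particle, fell by 0.35 (SE 0.09). In the assembly of N-linked sugars ALG3, a mannosyltransferase, fell from 29.9 to 38.4 CPM to 18.3 to 22.2 (-0.66, SE 0.10, in all omissions), and OST2, of the oligosaccharyl transferase, rose by 0.40 (SE 0.10). GET4 passed in 2 and MDY2 in 5 of 9 omissions, GIM3 and PFD1 in 6, and SRP54 in 1.

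In the list of nitrogen catabolite repression and permeases 4 genes fell and 1 rose among 39 tested. In that of allantoin and urea use 2 fell of 12, with 5 of the 12 values above 0. Yeast represses genes for poor nitrogen sources when good ones are present, and GATA factors drive such genes when repression is lifted. The list of 39 also holds amino acid permeases, so not each member is a gene of this kind. DUR12 (YBR208C, chromosome II from 636703 to 642210, reverse strand), the urea amidolyase that breaks urea down to ammonia, was at 13.6 CPM in Δtma20 and 13.6 in ΔΔtma20tma64 in YPD and 33.9 and 29.0 in SD, against 55.8 and 25.5 in WT1 and WT2, 35.1 in Δtma64 in YPD, 100.4 in wt in SD and 81.6 in Δtma64 in SD. DUR12 was thus higher in SD than in YPD in each strain, and the lysate without TMA20 was the lower one in all 4 strata, with log2 ratios of -1.46 and -1.35 in YPD and -1.56 and -1.48 in SD, with and without TMA64 respectively. The fitted fall was 2.85-fold (log2 fold change -1.51, SE 0.20, adjusted p = 0.00599, in all omissions). GAP1, the general amino acid permease, fell to 15.5 and 14.2 CPM from 21.8 to 27.7 in YPD and to 50.3 and 53.7 from 95.5 and 95.5 in SD (-0.81, SE 0.10, adjusted p = 0.00184, in all omissions). Other permeases and enzymes of the list of 39 fell by less. These were UGA2, which uses γ-aminobutyrate (-0.59, SE 0.12), the glutamate and aspartate permease DIP5 (-0.57, SE 0.13) and the broad permease AGP1 (-0.38, SE 0.09). DAL1, the allantoinase, fell at low levels, from 1.76 to 3.07 CPM to 0.459 to 1.19 (-1.68, SE 0.42). LYP1, the lysine permease, was the one member of the list of 39 that rose (0.29, SE 0.07). The ammonium permeases MEP1 (-0.62, SE 0.18) and MEP2 (-0.58, SE 0.19) and the urea permease DUR3 (-0.82, SE 0.25) did not pass. The median over 39 tested genes of the nitrogen list was -0.08, with 27 values below 0, and UGA2, DIP5, AGP1, DAL1 and LYP1 passed in 7, 4, 4, 3 and 2 of 9 omissions.

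Sulfate assimilation and methionine synthesis showed 5 fallen genes and no risen one among 34 tested, with a median of -0.10. The median of the list was 0.09 and 0.02 in YPD with and without TMA64 and -0.25 and -0.22 in SD. The strains lack MET17, which joins sulfide to the carbon chain of homocysteine, and so depend on methionine from the medium. MET3 (YJR010W, chromosome X from 456239 to 457774, forward strand), the ATP sulfurylase that activates sulfate, was at 16.1 CPM in Δtma20 and 9.72 in ΔΔtma20tma64 in YPD and 74.3 and 74.7 in SD, against 19.6 and 22.1 in WT1 and WT2, 24.7 in Δtma64 in YPD, 202 in wt in SD and 168 in Δtma64 in SD. MET3 was therefore several times higher in SD than in YPD in the lysates with TMA20 and lower without TMA20 in all 4 strata, least in YPD with TMA64 (log2 ratio -0.37) and most in SD with TMA64 (-1.44). The fitted fall was 2.06-fold (-1.04, SE 0.15, adjusted p = 0.0042, in all omissions). MET14, the kinase of the next step, fell by 0.51 (SE 0.13), MET5 of sulfite reductase by 0.64 (SE 0.13), MET2, which acetylates homoserine, by 0.73 (SE 0.14), and MET6, the methionine synthase, by 0.52 (SE 0.10). In SD the level of MET6 was 2547 and 2338 CPM without and 4313 and 4242 with TMA20. MET2, MET5, MET6 and MET14 passed in 6, 5, 7 and 2 of 9 omissions. The sulfate permeases SUL1 (-1.14, SE 0.43) and SUL2 (-0.53, SE 0.19) did not pass. The mRNA of MET3 and MET6 had log2 values of -0.06 (SE 0.12) and -0.04 (SE 0.20).

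Promoter letters of the fallen genes in both groups are shown here because these genes moved together. The letters CACGTG, which Cbf1 binds at sulfur genes, are their own reverse complement and were searched in the 500 bases before each start codon. They occur upstream of all 5 fallen sulfur genes, of 23 of 34 tested genes of that list (67.6%) and of 6.33% of 5323 ORFs tested. GATAAG, the core that GATA factors bind, was searched on both strands and occurs upstream of 21 of 39 genes of the nitrogen list (53.8%), of 2 of its 4 fallen genes (AGP1 and GAP1), of DUR12 and of 22.6% of all. TGACTC, letters that Gcn4 binds, also searched on both strands, occurs upstream of 13.1% of all, 15.5% of the risen and 10.3% of the fallen genes. The 3 letter runs share no bases in the windows printed below. Each window has 30 bases, read 5′ to 3′ on the strand of the gene with the letters in capitals, and is the occurrence nearest to the start codon, from the RefSeq sequence of R64.
MET3 (chrX:455867-455896, 354 bases before the start codon): gaccagaaaagtCACGTGtaattttgtaac
MET14 (chrXI:439596-439625, 222 bases before): tgccactaatttCACGTGatcaatatattt
MET5 (chrX:683572-683601, 298 bases before): aatgaatttcatCACGTGcgtattatctct
MET2 (chrXIV:116984-117013, 347 bases before): ttgacgtattttCACGTGatgcgcctcact
MET6 (chrV:342638-342667, 489 bases before): tatttCACGTGacttacaaacagagtcgta
DUR12 (chrII:642517-642546, 318 bases before): gcaagccattgaGATAAGacacgcagatgt
GAP1 (chrXI:514809-514838, 236 bases before): taaattaaacatGATAAGcgcatagttggg
AGP1 (chrIII:78155-78184, 247 bases before): caaatcaatcctGATAAGacggctaagatg
Among the risen genes the CACGTG share was 5.95% and the GATAAG share 19.0%, and among the fallen genes 11.9% and 19.8%. A match of letters is a description of the window and no measured binding.

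Amino acid enzymes beyond sulfur moved in both directions. ARO9, the aromatic aminotransferase that starts the breakdown of tryptophan and phenylalanine, was at 232 and 229 CPM in YPD and 247 and 226 in SD without TMA20 and at 131 to 199.7 with it (0.59, SE 0.09, adjusted p = 0.00599, in all omissions). ARO10, the decarboxylase of the same pathway, rose by 0.35 (SE 0.09), and HIS1, the committing enzyme of histidine synthesis, by 0.39 (SE 0.08). PCL5, a cyclin through which Pho85 marks the transcription factor Gcn4 for destruction, rose by 0.83 (SE 0.17), from 9.03, 9.62 and 10.6 CPM to 20.5 and 27.4 in YPD and from 19.3 and 27.1 to 34.5 and 30.4 in SD. GCN4 itself did not pass over both media (0.65, SE 0.23, adjusted p = 0.166), but its change differed between them (interaction -1.16, SE 0.20, adjusted p = 0.0234). In YPD it stood at 69.1 and 60.8 CPM without and 28.1 to 31.5 with TMA20, and in SD at 104 and 72.3 without and 99.1 and 72.8 with it, so the groups were apart in YPD alone. In the synthesis of branched-chain amino acids BAT2, a transaminase, fell by 0.58 (SE 0.13), and PRO3, the last enzyme of proline synthesis, by 0.39 (SE 0.08). None of 15 arginine genes passed. HIS1, ARO10 and PCL5 passed in 4, 1 and 5 of 9 omissions, BAT2 in 3 and PRO3 in 6.

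Changed genes of central carbon metabolism all fell. Of 24 glycolysis and fermentation genes 23 had values below 0 with a median of -0.28, beside -0.12 in mRNA. TDH3, GPM1 and TPI1, which fell in all omissions, had log2 fold changes of -0.57, -0.49 and -0.41, and PGI1, ENO1 and ENO2 of -0.36, -0.62 and -0.32. PGI1 sits at the entry of glycolysis, and both enolases share windows (57.6% unique), as does TDH3 (52.8%). PDH1, the 2-methylcitrate dehydratase of propionate breakdown, was at 4.05 and 2.91 CPM in YPD and 11.1 and 8.18 in SD without TMA20, against 6.73 to 10.7 in YPD and up to 29.9 in SD with it (-1.50, SE 0.19, adjusted p = 0.00184, in all omissions). The 3 other genes of this cycle had values below 0 (-0.81 in CIT3 to -0.28 in ICL2) and did not pass. PYC1, which refills oxaloacetate, fell by 0.48 (in all omissions, with 86.0% unique windows). The peroxisomal citrate synthase CIT2 had a fitted fall of 0.64 (SE 0.15) and IDH1, of isocitrate dehydrogenase, of 0.53 (SE 0.12). CIT2 did not fall in YPD without TMA64 (log2 ratio 0.01), nor IDH1 in SD with TMA64 (0.02). GPP1, which releases glycerol, fell by 0.35 (SE 0.08) and GND1, of the pentose phosphate pathway, by 0.38 (SE 0.08). ENO1, CIT2, IDH1, GPP1 and GND1 passed in 3, 3, 4, 2 and 3 of 9 omissions. ODC1, a mitochondrial carrier of oxodicarboxylates in none of the lists, was at 15.6 CPM or more with TMA20 and fell to 7.38 to 13.5 (-0.77, SE 0.15).

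Ribonucleotide reductase, which makes deoxynucleotides for DNA, fell in 3 of its 4 genes. RNR2, the main small subunit, was at 456, 411, 459 and 483 CPM without TMA20 and at 567 to 703 with it, a fall of 1.39-fold (-0.48, SE 0.08, adjusted p = 0.00599, in all omissions). RNR4, the other small subunit, fell by 0.33 (SE 0.08). RNR3, the large subunit induced by DNA damage, fell from 6.95 to 12.5 CPM to 3.11 to 6.43 (-0.97, SE 0.21), whereas RNR1, the constitutive large subunit, had a value of -0.07 (SE 0.10). RNR4 passed in 3 and RNR3 in 4 of 9 omissions. For pyrimidines URA8, a CTP synthase, fell by 0.55 (SE 0.09, in all omissions) and URA2, which begins the pathway, by 0.39 (SE 0.08), but FUR1, which salvages uracil, rose from 185 to 229.7 CPM to 287 to 330.4 (0.50, SE 0.08, in all omissions). No purine synthesis gene passed of 22. The mRNA of RNR2, RNR3 and RNR4 had log2 values of -0.32, -0.53 and -0.39, and that of FUR1 0.06 (SE 0.11).

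Of 34 genes of the pheromone response tested, 6 fell and none rose. MFA1, which encodes the a-factor pheromone, was at 44.3 and 44.1 CPM in YPD without TMA20, below the 54.4 to 73.6 of the lysates with it, and at 145 and 98.3 in SD, below 241 and 148 (-0.55, SE 0.11, adjusted p = 0.0168). The agglutinin subunits AGA1 (-0.70, SE 0.17) and AGA2 (-0.50, SE 0.12) fell, as did BAR1, the protease that degrades α-factor (-0.58, SE 0.14), ASG7, an a-specific regulator of signalling (-0.84, SE 0.18), and PRM1, a membrane protein of cell fusion (-1.66, SE 0.33; 0.357 to 3.40 CPM without and 1.02 to 10.3 with TMA20). Not all a-specific genes moved: the second a-factor gene MFA2 had a value of -0.10 (SE 0.13), the receptor STE2 -0.23 (SE 0.09) and the exporter STE6 -0.15 (SE 0.08). Over the 34 genes 23 values lay below and 11 above 0, and the median was -0.10. MFA1 and PRM1 passed in 6 of 9 omissions, ASG7 in 4, AGA1 and AGA2 in 3 and BAR1 in 2.

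In the mitochondrion small proteins of cytochrome c oxidase moved apart. The subunits COX8 (0.47, SE 0.11) and COX12 (0.41, SE 0.11) rose together with the assembly factors COX19 (0.53, SE 0.12) and COA2 (0.81, SE 0.19), while COX17, the copper chaperone of the enzyme, fell from 61.2 to 109.6 CPM to 45.1 to 63.2 (-0.50, SE 0.10). The 30 nuclear genes of the respiratory chain had a median of 0.16 in footprints and 0.21 in mRNA, and the 17 of ATP synthase 0.15 and 0.20, with no called gene among the latter. These medians were uneven over the strata, at -0.13 and -0.03 in YPD with TMA64 and at 0.58 and 0.53 in SD without it. In contrast the 7 tested protein genes of the mitochondrial genome all had values below 0 with a median of -0.89, and 1 of them, ATP8, fell at 0 to 5.55 CPM, where 4 of the 9 lysates, all in YPD, had no count. The footprint median of these 7 genes ran from -0.21 in SD with TMA64 to -1.51 in SD without it. Their mRNA median was 0.53 in libraries made with oligo(dT). TIM21, of the import machinery, rose by 0.46 (SE 0.09). COX8 and COX12 passed in 3 and 2 of 9 omissions, COX19 and COA2 in 4 and 2, and COX17 in 7. ATP8 lost its call without ΔΔtma20tma64 in SD (adjusted p = 0.496) and was tested in 7 of the omissions.

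In the lists of vacuolar proteases, V-ATPase, proteasome and vesicle coats changed genes fell and none rose, and single genes around them moved in both directions. APE1, a vacuolar aminopeptidase, was at 153, 155, 156 and 193 CPM without TMA20 and at 208 to 266 with it (-0.58, SE 0.10, in all omissions). VMA1 (-0.32) and VMA6 (-0.31) of the proton-pumping V-ATPase and its assembly factor VMA22 (-0.46) fell, 3 of 20 genes of that list. UBA1, the ubiquitin-activating enzyme, fell by 0.45 (SE 0.08), the ubiquitin ligase UBR1 by 0.38 (SE 0.08) and the ubiquitin-like modifier SMT3 by 0.39 (SE 0.08), while the ubiquitin-conjugating enzyme UBC7 rose (0.35, SE 0.09), as did GID8 of a ubiquitin ligase complex (0.46, SE 0.11). NAS6, which helps to assemble the proteasome, fell from 78.1 to 82.0 CPM to 48.0 to 64.6 (-0.58, SE 0.09, in all omissions), while of 36 proteasome genes RPT2 fell (-0.34, SE 0.09) and none rose. Among the genes of phosphate PPN1 and DDP1, which cut polyphosphate, fell by 0.42 and 0.49 and the vacuolar alkaline phosphatase PHO8 by 0.51. DUG1, a dipeptidase of glutathione breakdown, fell from 481 to 628 CPM to 343 to 402 (-0.59, SE 0.08, adjusted p = 0.00235, in all omissions). COP1 (-0.35) and SAR1 (-0.33), of the COPI and COPII coats, fell as well, and BET1, a SNARE of the same transport steps, rose (0.46). UBA1 lost its call without Δtma20 in SD (adjusted p = 0.0532), and VMA1, VMA6, VMA22, COP1, SAR1 and BET1 passed in 3 or fewer of 9 omissions.

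Several strongly changed genes stood outside these groups. NIP100, of dynactin, rose from 4.82 to 7.64 CPM to 10.3 to 12.3 (0.84, SE 0.17), and the remaining 14 dynein and dynactin genes did not pass. TVP15, a Golgi membrane protein, rose by 0.71 (SE 0.13), the plasma membrane phosphatase PSR2 by 0.51 (SE 0.09) and PAN6, which makes pantothenate, by 0.44 (SE 0.08). YBR191W-A, an ORF with no RefSeq coordinates, had the largest fitted rise among the changed genes (2.04, SE 0.30, in all omissions), from 0.381 to 3.94 CPM to 2.14 to 13.5. Among the falls HOL1, a transporter that brings polyamines into the cell, was at 29.5 and 18.1 CPM in YPD and no more than 38.0 in SD without TMA20, against 36.5 to 44.4 and 50.8 to 55.3 with it (-0.78, SE 0.13, in all omissions). SPE3, the spermidine synthase, fell by 0.51 (SE 0.11). DDR48, a stress-induced protein with repeats (50.6% unique windows), fell from 140.2 to 225 CPM to 81.3 to 117 (in all omissions). HSP30, a protein of the plasma membrane, fell by 1.25 (SE 0.24), BNA2, the initial enzyme from tryptophan to NAD, by 1.14 (SE 0.22), and the repressor MIG3 by 1.01 (SE 0.19). YDR248C and DMO2 fell by 0.65 and 0.50 in all omissions.

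Genes of DNA, chromosomes and the cell cycle changed in both directions. The kinetochore proteins SPC24 (0.52, SE 0.11) and HSK3 (0.45, SE 0.11), the telomerase subunit EST3 (0.59, SE 0.15) and CDC28, the central cyclin-dependent kinase (0.32, SE 0.08), rose. Of the base excision repair enzymes NTG2 rose (0.66, SE 0.17) and MAG1 fell (-0.71, SE 0.16), and RAD26, which repairs transcribed strands, fell (-0.46, SE 0.11) with RFA3 of the single-strand binding complex (-0.40, SE 0.08). The histone chaperone VPS75 (0.42) and SNF11 of the chromatin remodeller SWI/SNF (0.62) rose, whereas none of 19 histone genes and 29 nuclear pore genes passed. These calls rest on few of the omissions: VPS75 passed in 5 of 9, RFA3 and SNF11 in 4, and the rest of them in 3 or fewer.

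Lipid genes that changed fell for the most part. ERG1 (-0.33, SE 0.08) and ERG6 (-0.30, SE 0.08) of ergosterol synthesis, OPI3, which methylates phospholipids (-0.39, SE 0.10), TAZ1, which remodels cardiolipin (-0.57, SE 0.12), and INO1, which makes inositol (-1.09, SE 0.18), fell. INO1 was at 1.07 and 0.389 CPM without and 2.29, 1.28 and 1.74 with TMA20 in YPD, and in SD at 81.9 and 29.8 without and at least 81.3 with it. SUR2, a sphingolipid hydroxylase, rose (0.32, SE 0.08), a call lost in each omission. INO1 passed in 7 of 9 omissions, OPI3 and TAZ1 in 4, ERG1 in 2 and ERG6 in 1. No gene of 19 for fatty acids passed.

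Among the changed genes the largest fitted falls after TMA20 were of genes with few counts. MAL12, a maltase of a repeated gene family (9.55% unique windows), was at 0 to 0.229 CPM without TMA20, and with it at 11.8 in wt in SD against no more than 2.05 in the other 4 lysates. UBC11, a ubiquitin-conjugating enzyme, was at 0.119 to 0.585 CPM without and 0.381 to 2.19 with TMA20, and AQY2, a water channel, at 0.194 to 1.17 and 0.868 to 4.45, so both groups overlapped in either gene. Their log2 fold changes (-2.51, SE 0.59, and -2.36, SE 0.51) depend on the counts added before taking logs, and they passed in 2 and 5 of 9 omissions.

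**Figure D3:**
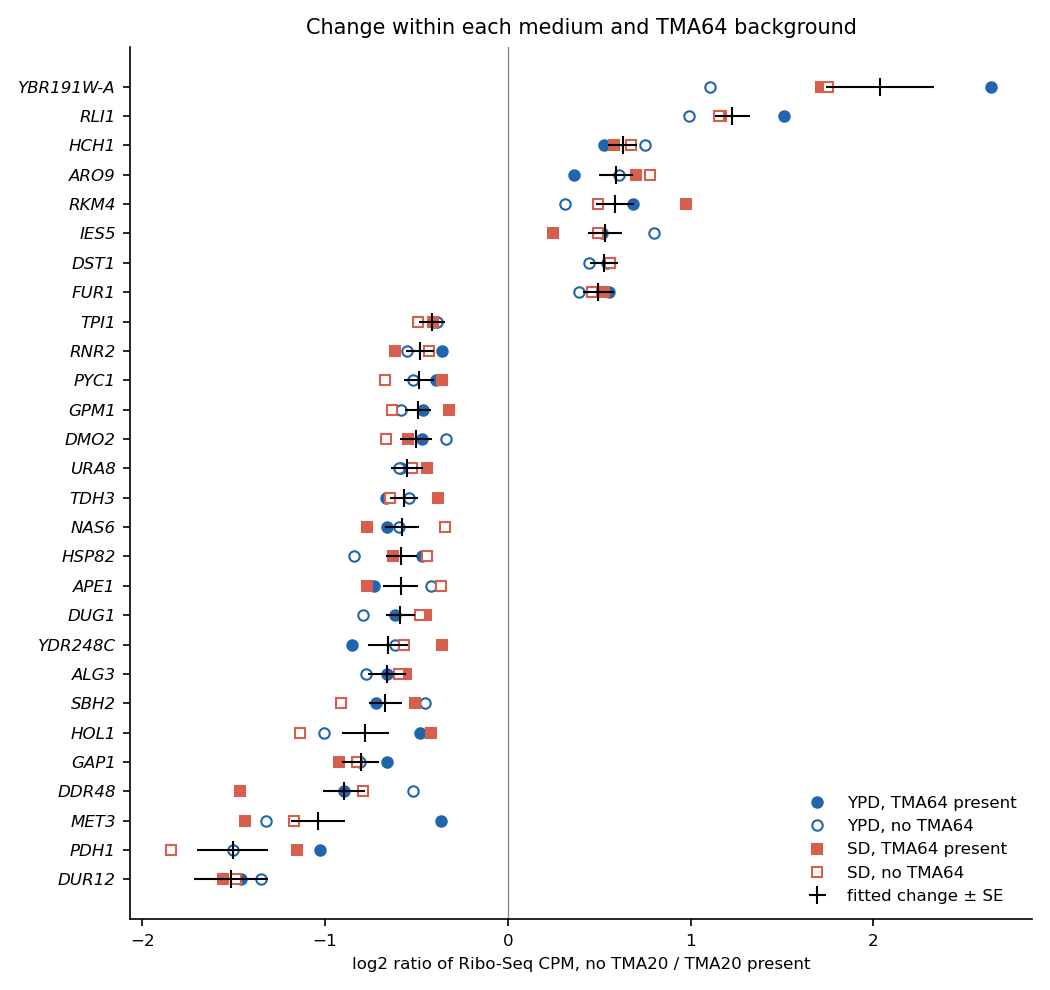
Log2 ratio of Ribo-Seq CPM without to with TMA20 in each of 4 strata (circles YPD, squares SD, filled with TMA64, open without) for 28 genes other than TMA20 that passed in all 9 omissions, with the fitted log2 fold change ± SE as a black cross. The 4 ratios of each gene lie on the same side of 0, and those of MET3 range from -1.44 to -0.37.

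The mRNA of the changed genes moved less than their footprints, which the choice of genes by their footprints favours. In RNA-Seq of the same lysates 5 of 5966 ORFs passed for loss of TMA20 (0.0838%), among them TMA20 and YOL153C, which also changed in Ribo-Seq. The median mRNA log2 fold change was 0.16 over the 85 risen genes and -0.20 over the fallen genes tested in both assays, beside -0.01 over all. Of the risen genes 77 had mRNA values above 0, and 117 of the fallen ones below 0. Both assays come from 1 set of lysates, so these signs are not independent of a difference between cultures. For translation efficiency, the ratio of footprints to mRNA, 4 of 5935 ORFs passed (0.0674%). RLI1 rose (0.92, SE 0.14, adjusted p = 0.0112), and HOL1 and SBH2 fell (-0.86 and -0.69, adjusted p = 0.0344 and 0.0344). The fourth, mitochondrial VAR1, had too few footprints to be tested in Ribo-Seq alone, at 0 to 3.27 CPM. Its fitted fall in efficiency (-4.32, SE 0.78, adjusted p = 0.0344) rests on those low counts. In the paired fit, with the lysate as a replicate block, RLI1 (adjusted p = 0.0159) and SBH2 (0.02) passed and HOL1 (0.0534) and VAR1 (0.0639) did not, and 5 genes passed in all. With 1 lysate left out RLI1 passed in 4 of 9, VAR1 in 3, HOL1 in 2 and SBH2 in 1, and none of the 4 passed without WT2 or without any one of the SD lysates of wt, Δtma64 and ΔΔtma20tma64. RLI1 mRNA was at 209 ± 59.1 CPM (SD, n = 4) without and 173 ± 28.9 CPM (SD, n = 5) with TMA20. Among genes whose mRNA moved about as much as their footprints were HSP30 (mRNA -1.24, SE 0.29) and HXT1, a glucose transporter (-0.63, SE 0.13, beside -0.55 in footprints). FRE7, a copper-regulated metal reductase, was also near the line of equal change. Its footprints rose in YPD from 39.1 to 66.5 CPM to 96.1 and 103, while they were under 1 CPM in SD in each lysate.

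**Figure D4:**
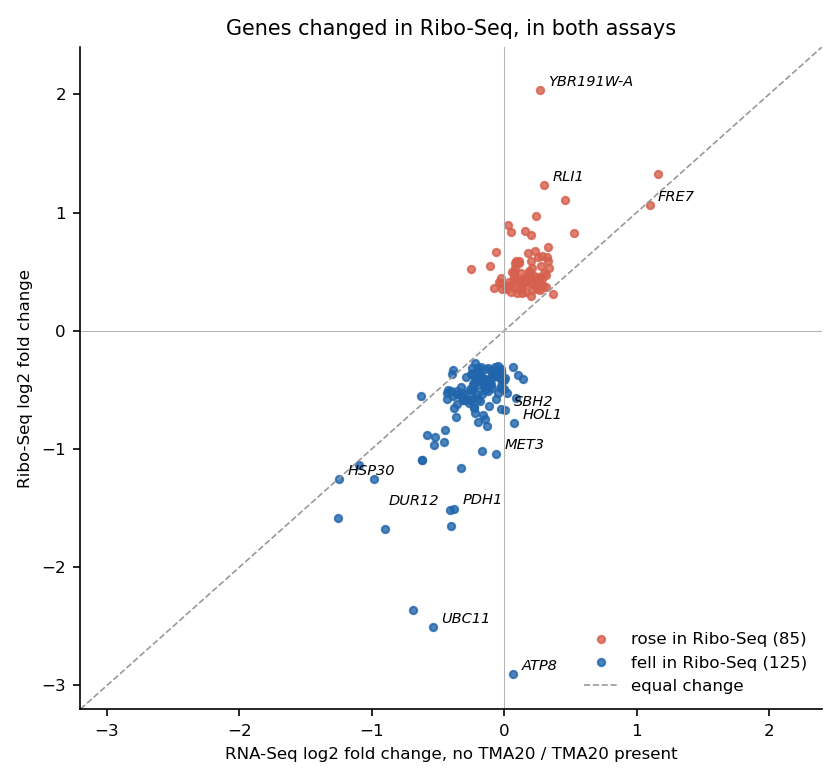
Ribo-Seq against RNA-Seq log2 fold change without TMA20 for the genes changed in Ribo-Seq, apart from TMA20 (red 85 risen, blue 125 fallen genes). The dashed line marks equal change in both assays. RLI1, HOL1, SBH2 and MET3 lie far from it, and HSP30 and FRE7 lie on or near it.

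The risen genes were shorter than the fallen ones. Their median coding length was 693 nt, against 1380 nt in the fallen genes and 1254 nt over all ORFs tested. Shares by length were taken over the 4895 tested ORFs with known coordinates and an average log2 CPM of at least 3. Of those of 300 to 600 nt 4.72% rose and 1.73% fell, and of those of 1200 to 1800 nt 0.696% rose and 3.39% fell. None of the 236 over 3600 nt rose, and 8 fell. This length pattern was uneven among the strata: Spearman's rho between the log2 ratio and coding length over 4895 ORFs, which share libraries and are no replicates, was -0.35 in YPD without TMA64, -0.13 in SD without TMA64, -0.01 in SD with TMA64 and 0.07 in YPD with TMA64. For mRNA the fitted change gave -0.33, and WT2 against WT1 gave 0.03 in Ribo-Seq. With each lysate left out in turn, a choice made after seeing the data, the median length was 639 to 876 nt in the risen and 1247 to 1407 nt in the fallen genes. Without ΔΔtma20tma64 in YPD it was 825 and 1247 nt. Changed genes were also somewhat more abundant than the rest, with a median average log2 CPM of 5.94 in the risen and 6.80 in the fallen genes against 5.52 over all. They lay on all chromosomes but I, and 9 pairs of neighbouring ORFs were both changed, 4 of them in 1 direction (YEL073C with RMD6, TRM5 with PCL5, MET14 with VPS1, and YOL153C with FRE7). The neighbours of TMA20, PAC2 and SEC3, had log2 values of 0.22 (SE 0.15) and 0.03 (SE 0.11) and did not pass.

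**Figure D5:**
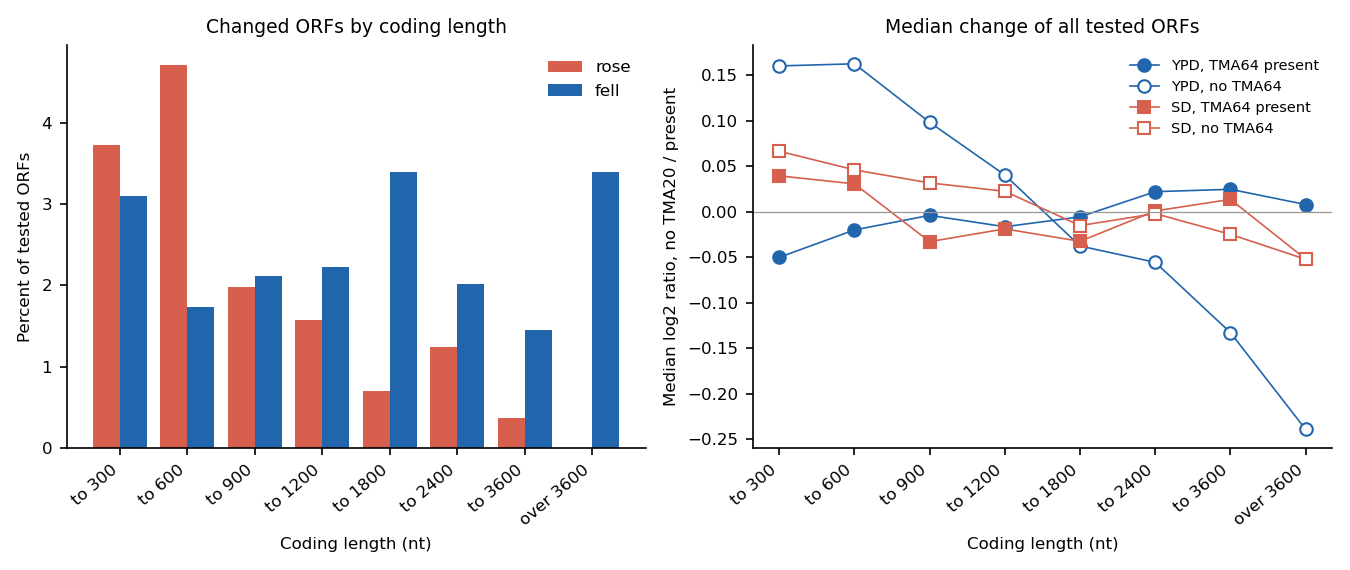
Both panels use the 4895 tested ORFs with known coordinates and an average log2 CPM of at least 3. Left, percent of these ORFs that rose (red) or fell (blue) without TMA20, by coding length in nt. Right, their median log2 ratio without to with TMA20 in each of 4 strata (circles YPD, squares SD, filled with TMA64, open without). In YPD without TMA64 the median goes from 0.16 in ORFs up to 300 nt to -0.24 in those over 3600 nt, and the other strata stay between -0.05 and 0.07.

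The change without TMA20 differed between the media in 6 ORFs (0.112% of 5369; adjusted p under 0.05 for the interaction) and between TMA64 backgrounds in 8 (0.149%), none of which is among the 212. CWP1, a cell wall mannoprotein, was lower without TMA20 in YPD (425 and 408 CPM against 691 to 827) and higher in SD (740.4 and 846 against 628 and 637; interaction 1.16, SE 0.18, adjusted p = 0.0116). The ORF YHR033W, at low counts, moved as CWP1 did, with 1.67 and 0.583 CPM against 2.61 to 4.45 in YPD and 12.9 and 13.9 against 3.94 and 2.89 in SD (interaction 3.60, SE 0.54, adjusted p = 0.0116). ENB1, a siderophore transporter, differed the other way (-1.20), as did the phosphate transporter PHO84 (-1.62) and ARG1, of arginine synthesis (-1.24), the last of which was at 80.4 and 56.0 CPM against 46.9 to 55.1 in YPD and at 335 and 217 against 447 and 451 in SD. The remaining one was GCN4, described with the amino acid enzymes. All 8 ORFs that differed by TMA64 background did so in 1 direction: the log2 ratio was lower with TMA64 than without it. RTC3, a small stress-induced protein, was at 59.6 and 291 CPM in Δtma20 against 99.5 to 108 and 460.2 in wt, but at 80.2 and 385 in ΔΔtma20tma64 against 55.8 and 237 in Δtma64 (interaction 1.36, SE 0.16, adjusted p = 0.0034). Among the ORFs that differed by TMA64 background were also the trehalose synthase TPS1 (0.93), the lipid droplet protein PLN1 (1.07) and WHI2, of the general stress response (1.02). These counts depended on single lysates: 0 to 46 genes by medium and 0 to 145 by TMA64 when 1 lysate was left out, with 0 by medium without Δtma20 in YPD, ΔΔtma20tma64 in YPD or Δtma64 in SD and 0 by TMA64 without Δtma20 in YPD or ΔΔtma20tma64 in SD. At an unadjusted p under 0.05 the interactions gave 285 ORFs (5.31%) by medium and 461 (8.59%) by TMA64 background.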

How the data were processed

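The authors deposited raw counts per gene, counted on the strand of the gene, for 9 Ribo-Seq and 9 RNA-Seq libraries of the same lysates. The reads were trimmed with cutadapt 1.18 and aligned with STAR 2.5.3a to R64-1-1, per the labels and the study's methods. Ribo-Seq used the monosome fraction after RNase I, and RNA-Seq oligo(dT)-selected RNA. The 6713 ORF rows were used and 413 rows that are no ORF were left out of totals (0.394% to 12.0% of gene counts in Ribo-Seq), as were reads on no feature (0.805% to 1.58% in Ribo-Seq, 18.8% to 39.1% in RNA-Seq). RNA-Seq libraries held 5608491 to 11388027 ORF counts. Counts of ORFs kept by filterByExpr (minimum count 10) were scaled with TMM and fitted in edgeR 4.0.16 (R 4.3.3) with medium, TMA64 and TMA20 as terms, by the robust quasi-likelihood test with Benjamini-Hochberg adjustment over all ORFs. Interactions with medium or TMA64 were added 1 at a time, and translation efficiency was the interaction of assay and TMA20 over 18 libraries. SE is the size of the log2 fold change divided by the root of F. CPM carry no prior count, and within-stratum ratios used log2 CPM with a prior count of 2. Strata set Δtma20 against wt and ΔΔtma20tma64 against Δtma64 in each medium, with WT1 and WT2 averaged. The tests were checked on simulated counts. Alternatives were RLE scaling, no filter, DESeq2 1.42.0, a stricter filter, no TMA64 term, single media and TMA64 backgrounds, unique ORFs, unstranded counts and each lysate left out. Windows of 28 nt that occur once in R64 gave the unique share of an ORF, and coordinates and sequences are from RefSeq R64 for 6013 ORFs. Promoter and protein sequence tables were not used here.

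The members and gene lists were chosen with earlier results of these data known. Genes are named by this rule: among changed ORFs whose mean log2 CPM reached 3, the 15 largest rises and the 15 largest falls of one sign in all 4 strata, up to 4 changed members of each list, TMA20, TMA22, TMA64, the neighbours of TMA20, the label checks and the top ORF of each interaction. The genes BET1, COX19, CPR1, DMO2, DST1, DUG1, ENO2, IES5, LYP1, MET14, NAS6, ODC1, PAN6, PGI1, PSR2, RKM4, RMD6, RPL36B, RPS26B, SMT3, TMA19, TMA7, UBA1, UBR1, VPS1, YBR191W-A, YDR248C, YOL153C, SPC24, HSK3, EST3, NTG2, MAG1, RAD26, VPS75, SNF11, TAZ1, SUR2, UBC11, AQY2 and GID8, the remaining interaction genes, and the unchanged genes set beside a changed one were chosen after their values were seen.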

Additional observations from a re-analysis of the deposited data

Results flagged for a closer look

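Of 254 groups of 4 or 5 lysates checked, over the 127 changed genes named by rule, 14 had 1 lysate far from the others, where chance flags about 1 in 20 groups. Changed genes named beyond the rule were not checked. Among the lysates with TMA20, wt in SD stood apart in 6 of them, 4 times above the rest: LSO2 at 134 CPM (nearest 83.4), MAL12 at 11.8 (2.05), PRO3 at 540.0 (449.9) and RPL8A at 1293 (1196). It was below the rest in SLM4 at 38.1 CPM (49.3) and UBC7 at 53.0 (70.2). Other lysates with TMA20 that stood apart were WT1 in ALG3 at 38.4 CPM (nearest 32.2), WT2 in ARO10 at 199.7 (163) and HCH1 at 211 (189), Δtma64 in YPD in APE1 at 208 (249) and Δtma64 in SD in GND1 at 1306 (1581). Among the lysates without TMA20, ΔΔtma20tma64 in SD stood apart in APE1 at 193 CPM (155.6), and Δtma20 in SD in MYO3 at 76.6 (92.3) and TVP15 at 80.1 (104).

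Among ORFs whose mean log2 CPM reached 3, the change without TMA20 differed between media with the smallest adjusted p in CWP1, by 1.16 on the log2 scale (SE 0.18, adjusted p = 0.0116 from edgeR), and between TMA64 backgrounds in RTC3, by 1.36 (SE 0.16, adjusted p = 0.0034).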

How the results depend on the processing

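The 212 genes became 233 with RLE scaling, 216 without the filter on low counts, 299 with DESeq2, 204 at an average log2 CPM of at least 3, 229 without the TMA64 term, 185 over ORFs with only unique windows and 205 with unstranded counts. In YPD alone 42 genes passed and in SD alone 281, among strains with TMA64 90 and without TMA64 440, and 102 without the libraries of lowest total (Δtma20 and wt in SD). Fewer lysates enter each of these fits, and those in SD alone and without TMA64 hold no strain with a replicate within a medium. These counts are therefore no measure of how large the change is in each part. With 1 lysate left out the count was 56 to 272. Loss of TMA20 gave 52 genes with DESeq2 in RNA-Seq and 3 to 11 with 1 lysate left out. Translation efficiency gave 20 with DESeq2 and 0 to 7, the interaction with medium 9 without the filter, 16 with DESeq2 and 0 to 46, and that with TMA64 7 with RLE, 20 without the filter, 28 with DESeq2 and 0 to 145. The fits of translation efficiency with the lysate as a replicate block, since Ribo-Seq and RNA-Seq are paired by lysate, gave 5 genes, of which 2 (RLI1 and SBH2) are among the 4. Strains share no replicate number beyond 1, so no other paired fit was made. RTC3, not called over all strains (-0.10), changed sign to 0.63 among strains without TMA64. Among the genes named by rule, no other log2 fold change that was called took the opposite sign under an alternative listed. All 139 results tested for these genes kept their side of the threshold with RLE scaling and with DESeq2. Of them 89 no longer passed without Δtma20 in SD, 83 each without ΔΔtma20tma64 in YPD or Δtma64 in SD, and 80 without Δtma64 in YPD. Likewise 71 were lost without Δtma20 in YPD, 41 each without ΔΔtma20tma64 in SD or WT2, 32 without wt in SD and 6 without WT1. Changed genes named beyond the rule are not in these counts. The cause was not tested. Depth limits genes under about 1 CPM, where the lowest library holds few counts.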
